A study of Mus musculus with 8 samples.

Results

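The islet hormone genes are the 7 genes Ins1, Ins2, Iapp, Gcg, Sst, Ppy and Pyy, chosen by name and not by any measured value, and all 7 were among the 17362 genes of the deposited table. They were followed in single nucleus RNA-seq of mouse islets, in which nuclei of each condition and cell type had been pooled into 1 column, 54 columns in all (6 conditions by 9 cell types). Islets came from wild type (WT) mice and from mice with a whole-body Med14 S983A knock-in, which changes a serine of the Mediator scaffold subunit Med14 to alanine. Islets of each genotype, about 100 per preparation, served as controls without agonist (CON), received forskolin (FSK), a direct activator of adenylyl cyclase, or received 10 nM Exendin-4 (Ex-4), which stimulates the GLP-1 receptor, for 16 h. The dose of FSK in islets is absent from the labels, and no further allele or agent is named for any group.

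Islet hormones are made as precursors by specialised endocrine cells and stored in secretory granules. Beta cells make insulin, which in mice is encoded by both Ins1 and Ins2, and co-secrete the amyloid peptide encoded by Iapp. Alpha cells make glucagon from Gcg, delta cells make somatostatin from Sst, which restrains the neighbouring cells, and PP cells make pancreatic polypeptide from Ppy. Pyy encodes the related peptide YY, which several islet cell types can make. Cyclic AMP (cAMP), raised by FSK and Ex-4, acts on transcription through protein kinase A and the factor CREB, which binds cAMP response elements.

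Each condition had 1 pool, so there were no replicates and no test between conditions, and condition cannot be told apart from islet preparation and barcode well. Levels are recovered counts per 10000 counts of a column (CP10K). Brackets give 95% intervals (exact Poisson for a level, exact conditional for a ratio, Clopper-Pearson for a share), which cover counting error only. Summed counts per condition ran from 3652805 to 4085574. Beta cell columns held 1915006 to 3094377 counts, alpha cell columns 269394 to 810127, delta cell columns 362410 to 631433 and PP cell columns 38625 to 127727. From the counts of such pools alone, fewer cells of a type and less RNA per cell cannot be told apart. The paper reports relatively fewer beta cells and more alpha and delta cells in mutant islets. Its methods bring all samples to the same number of nuclei before later steps. Whether the pooled columns were made after that is not given in these sources. The pools did not stand at even distances: among 10093 kept genes in beta cells, only 5 or 6 passed 1.5-fold between any pair among mutant CON, mutant Ex-4 and WT Ex-4, and 14 between the FSK pools. WT CON differed from the other pools at 226 to 539 genes. The largest distances were between either FSK pool and mutant CON, mutant Ex-4 or WT Ex-4, at 617 to 981 genes. The targeted gene Med14 ranged from 0.463 to 0.753 CP10K in WT beta cells and from 0.384 to 0.716 in mutant beta cells, which does not check a point mutation.

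The cell type names are the authors' own. Of the markers other than the 7 hormones, those highest in their own cell type were 6 of 7 in the table for beta cells, 4 of 7 for alpha cells, 3 of 4 for delta cells and 2 of 4 for PP cells. For the column annotated as neurons it was 1 of 5, so that name is weakly supported.

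Ins1 lies on chromosome 19 at 52252735 to 52253914 on the plus strand (GRCm39, GENCODE M39) and has 2 exons in its canonical transcript. Ins2 lies on the minus strand of chromosome 7 at 142232393 to 142297118, a span of 64.7 kb set by long annotated transcripts, while its canonical transcript covers 1.07 kb. Iapp (chromosome 6, 142244149 to 142249688, plus strand) lies within the span of Slco1a5, an anion transporter gene on the opposite strand. Slco1a5 was at 0.532 CP10K in beta cells and 0.155 in delta cells over all conditions, below Iapp in both types. Gcg (chromosome 2, 62304873 to 62313997) and Sst (chromosome 16, 23707321 to 23711733) are both on the minus strand. Ppy (101990756 to 101992145) and Pyy (101997502 to 101998658) are neighbours on the minus strand of chromosome 11. Ins1 and Ins2 are closely related in sequence, and how reads shared by both were counted is not given in these sources.

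The promoters of 4 members are shown because these genes carry the differences described below. They are the 250 bases before the transcription start, 5′ to 3′, from RefSeq (GRCm38.p6), and 6 of the 7 members had an entry. Capitals mark TGACGTCA (the full cAMP response element) and TATAAA (the core promoter box), both searched on both strands. The windows are chr16:23890845-23891094 (minus strand) for Sst, chr2:62483654-62483903 (minus strand) for Gcg, chr6:142298175-142298424 (plus strand) for Iapp and chr19:52264047-52264296 (plus strand) for Ins1.
Sst: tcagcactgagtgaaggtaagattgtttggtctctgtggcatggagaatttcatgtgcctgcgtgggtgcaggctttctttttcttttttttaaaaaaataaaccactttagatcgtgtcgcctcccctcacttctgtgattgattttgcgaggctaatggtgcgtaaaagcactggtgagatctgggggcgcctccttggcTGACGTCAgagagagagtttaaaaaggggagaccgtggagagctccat
Gcg: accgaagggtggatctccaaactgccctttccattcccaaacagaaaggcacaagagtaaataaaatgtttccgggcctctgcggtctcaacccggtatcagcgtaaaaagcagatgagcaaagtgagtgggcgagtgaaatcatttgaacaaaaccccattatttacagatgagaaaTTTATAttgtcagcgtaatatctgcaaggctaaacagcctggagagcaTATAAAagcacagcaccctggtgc
Iapp: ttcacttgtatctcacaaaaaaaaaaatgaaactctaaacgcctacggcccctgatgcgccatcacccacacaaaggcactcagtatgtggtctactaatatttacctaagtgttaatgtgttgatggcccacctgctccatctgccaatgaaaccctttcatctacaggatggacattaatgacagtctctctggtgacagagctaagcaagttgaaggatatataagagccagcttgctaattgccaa
Ins1: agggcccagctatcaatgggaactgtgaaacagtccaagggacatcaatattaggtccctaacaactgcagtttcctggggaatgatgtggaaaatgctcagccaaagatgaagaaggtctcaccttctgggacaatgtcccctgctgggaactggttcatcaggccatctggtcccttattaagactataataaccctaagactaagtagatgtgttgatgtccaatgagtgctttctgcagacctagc
The Sst window was the only one of the members' windows to hold TGACGTCA, at positions -48 to -41 from the start. Among 32851 mouse promoter windows of the same length, 1.55% held it. The shorter core TGACG, which lies within the full element, was in 17.8% of windows and among the members only in that of Sst. TATAAA was in 12.4% of windows and, among the members, in those of Gcg and Ppy. These are matches of letters and not measured sites. Bases more than 250 upstream of the start were not searched, so a window without a match does not show that a gene lacks the element.

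In beta cells, the insulin genes were lowest after FSK and Iapp was highest there. In WT beta cells, Ins1 was at 4.54 CP10K (4.31 to 4.79) in CON, 3.26 (3.07 to 3.47) after FSK and 6.58 (6.29 to 6.88) after Ex-4. In mutant beta cells, Ins1 was at 8.52 (8.11 to 8.94) in CON, 3.59 (3.35 to 3.84) in FSK and 7.11 (6.73 to 7.49) in Ex-4. The 2 FSK pools were thus the lowest and the untreated mutant pool the highest. Ins2 in WT was at 10.4 CP10K (10.0 to 10.8) in CON, 8.81 (8.48 to 9.14) after FSK and 16.4 (15.9 to 16.9) after Ex-4. It was at 15.2 (14.7 to 15.8), 8.76 (8.38 to 9.15) and 16.1 (15.5 to 16.6) in the corresponding mutant pools. For Ins2, WT FSK and mutant FSK overlapped in their intervals, as did WT Ex-4 and mutant Ex-4.

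Iapp was high where the insulin genes were low. In WT it was at 11.6 CP10K (11.2 to 12.0) in CON, 14.1 (13.7 to 14.5) after FSK and 5.27 (5.01 to 5.54) after Ex-4. In the mutant, Iapp was at 4.51 (4.21 to 4.82) in CON, 15.2 (14.7 to 15.8) in FSK and 4.82 (4.51 to 5.14) in Ex-4. WT CON and both FSK pools were high and the other 3 pools were low, with a gap between them. Per kilobase of the unspliced canonical transcript, the pooled beta cell level was 11.5 CP10K for Ins2, 4.55 for Ins1 and 1.75 for Iapp. Per spliced kilobase the levels were 26.3, 5.05 and 11.5, so that the order of Ins1 and Iapp depends on which length is used. By raw level among all genes of the beta cell columns, Ins2 ranked between 30 and 130, Iapp between 58 and 238, and Ins1 between 87 and 542.

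**Figure D1:**
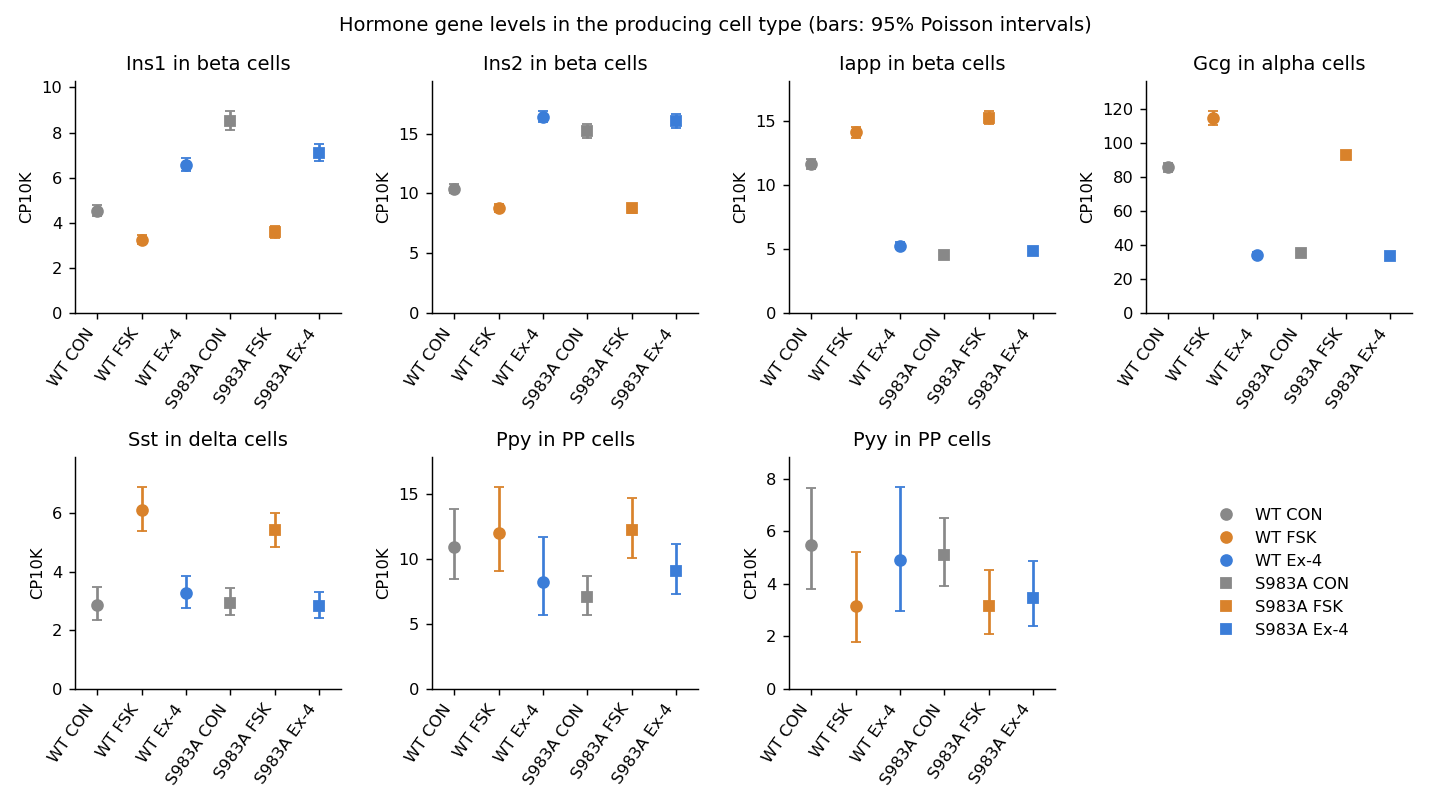
Level of each hormone gene in its producing cell type (y axis, CP10K) in the 6 pools (x axis), with circles for WT, squares for Med14 S983A and bars for 95% Poisson intervals of the counts. Iapp and Gcg were high in WT CON and both FSK pools and low in the other 3, Ins1 and Ins2 were lowest after FSK, and Sst was highest in both FSK pools.

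In alpha cells, Gcg was high and low in the same pools as Iapp was in beta cells. WT alpha cells had Gcg at 85.8 CP10K (83.1 to 88.7) in CON, 115 (111 to 119) after FSK and 34.1 (32.4 to 35.8) after Ex-4. In mutant alpha cells, Gcg was at 35.2 (34.0 to 36.6) in CON, 92.9 (90.8 to 95.1) in FSK and 33.8 (32.5 to 35.1) in Ex-4. The 3 low pools overlapped in their intervals and stood well below the other 3. Gcg ranked between 3 and 12 among all genes of the alpha cell columns. Summed over all cell types of a condition, Gcg was at 9.37 CP10K in untreated WT islets and 8.79 in untreated mutant islets, closer than in alpha cells alone. Alpha cells held 10.3% of all counts in the former and 21.6% in the latter. With agonist, the sums over all cell types were further apart than the alpha cell levels. They were 8.08 CP10K in WT and 19.6 in the mutant after FSK, and 4.15 and 8.69 after Ex-4.

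In delta cells, Sst was raised in the FSK pools of both genotypes. WT delta cells had Sst at 2.87 CP10K (2.34 to 3.48) in CON, 6.10 (5.39 to 6.89) after FSK and 3.27 (2.75 to 3.85) after Ex-4. In the mutant, Sst was at 2.95 (2.52 to 3.43) in CON, 5.42 (4.86 to 6.02) in FSK and 2.84 (2.41 to 3.32) in Ex-4. The 4 pools without FSK overlapped in their intervals and lay below both FSK pools. These levels rested on 104 to 342 counts, and Sst ranked only between 215 and 572 among the genes of the delta cell columns.

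In PP cells, the counts were few. Ppy was at 10.9 CP10K (8.49 to 13.9), 12.0 (9.10 to 15.6) and 8.28 (5.67 to 11.7) in WT CON, FSK and Ex-4. It was at 7.12 (5.74 to 8.75), 12.2 (10.1 to 14.7) and 9.09 (7.30 to 11.2) in the mutant pools. The interval of mutant CON lay below those of both FSK pools, and all other pairs overlapped. Pyy was at 5.47 CP10K (3.78 to 7.64), 3.16 (1.77 to 5.22) and 4.92 (2.96 to 7.68) in WT CON, FSK and Ex-4, and at 5.09 (3.93 to 6.49), 3.14 (2.10 to 4.51) and 3.47 (2.41 to 4.85) in the mutant. All 6 Pyy intervals overlapped, on 15 to 65 counts.

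To compare conditions, differences were taken on the log2(CP10K + 1) scale, on which changes of low genes come out smaller than their ratios, and 1.5-fold (0.58 on this scale) was the threshold for calling a gene higher or lower. The share of all kept genes past that threshold, in either direction, is given as the background for each comparison. All 7 members passed the filter on low values in their producing type. FSK in WT, Ex-4 in WT and the untreated genotype comparison all use WT CON, and their values are therefore not independent.

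FSK against CON in WT put 1 member above the threshold (Sst) and 1 below it (Pyy). The background was 2.24% of genes for beta, 2.51% for alpha, 4.79% for delta and 14.5% for PP cells. Sst was 2.13-fold higher (1.69 to 2.70), a difference of 0.88. Pyy was 1.73-fold lower on 15 and 34 counts, with an interval that spans equality (0.916 to 3.41), in the cell type with the highest background. Gcg was 1.34-fold (1.27 to 1.403) and Iapp 1.21-fold (1.16 to 1.27) above CON, under the threshold. Ins1 was 1.39-fold (1.28 to 1.51) and Ins2 1.18-fold (1.12 to 1.24) below CON, also under it.

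FSK against CON in the mutant, a comparison that does not use WT CON, put 4 members above the threshold (Iapp, Gcg, Sst and Ppy) and 2 below it (Ins1 and Ins2). The background was 7.83% for beta, 4.02% for alpha, 7.91% for delta and 13.5% for PP cells. Iapp was 3.38-fold higher (3.14 to 3.65), a difference of 1.56, and Gcg was 2.64-fold higher (2.52 to 2.75), a difference of 1.37. Sst was 1.84-fold higher (1.52 to 2.22) and Ppy 1.72-fold higher (1.29 to 2.29). Ins1 was 2.37-fold lower (2.18 to 2.58), a difference of -1.05, and Ins2 was 1.74-fold lower (1.64 to 1.84), a difference of -0.73. Pyy was 1.62-fold below CON (1.03 to 2.60), just short of the threshold. The direction of all 7 members was the same as in WT, where Ppy was at 1.10-fold with an interval that spans equality (0.760 to 1.59). Ratios were larger in the mutant for the beta cell members, Gcg and Ppy, and smaller for Sst and Pyy. Whether the genotypes differed in the response was not tested.

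Ex-4 against CON in WT put Ins2 above the threshold and Iapp and Gcg below it. The background was 3.12% for beta, 5.72% for alpha, 5.06% for delta and 20.3% for PP cells. Ins2 was 1.57-fold higher (1.51 to 1.65), a difference of 0.61, and Ins1, at 1.45-fold (1.35 to 1.55), fell short of the threshold. Iapp was 2.20-fold lower (2.08 to 2.34) and Gcg 2.52-fold lower (2.37 to 2.67). Sst was at 1.14-fold of CON, with an interval that spans equality (0.877 to 1.48).

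Ex-4 against CON in the mutant put no member past the threshold, where the background was 0.0495% for beta, 0.0422% for alpha, 0.0432% for delta and 4.13% for PP cells. Ins2 was at 1.06-fold of CON (1.00 to 1.11), Iapp at 1.07-fold (0.973 to 1.17) and Gcg at 0.958-fold (0.908 to 1.01). Ins1 was at 0.834-fold (0.776 to 0.897), opposite in direction to WT.

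Mutant against WT in untreated islets put Ins1 above the threshold and Iapp and Gcg below it. The background was 5.34% for beta, 7.38% for alpha, 7.05% for delta and 14.2% for PP cells. Ins1 was 1.87-fold higher (1.74 to 2.02) and Ins2 was at 1.46-fold (1.39 to 1.54), short of the threshold. Iapp was 2.58-fold lower (2.39 to 2.78), Gcg was 2.44-fold lower (2.32 to 2.56) and Ppy was 1.53-fold below WT (1.10 to 2.12), the last with a difference of -0.55, short of the threshold on the log2(CP10K + 1) scale.

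Mutant against WT put no member past the threshold under FSK, where the background was 0.139% for beta, 0.485% for alpha, 0.411% for delta and 10.2% for PP cells. The nearest was Gcg, 1.24-fold below WT (1.18 to 1.29). Under Ex-4 there was likewise no member past the threshold, against a background of 0.0594% for beta, 0.116% for alpha, 0.281% for delta and 15.9% for PP cells. There, Ins1, Ins2, Iapp and Gcg lay between 0.915-fold and 1.08-fold of WT, Sst was at 0.870-fold (0.689 to 1.10), Ppy at 1.097-fold (0.725 to 1.70) and Pyy, the furthest, at 0.706-fold (0.392 to 1.31). Over the 7 members, the median difference was 0.70 for FSK in the mutant and between -0.13 and 0.13 in the other 6 comparisons, beside medians over all kept genes between -0.06 and 0.05.

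**Figure D2:**
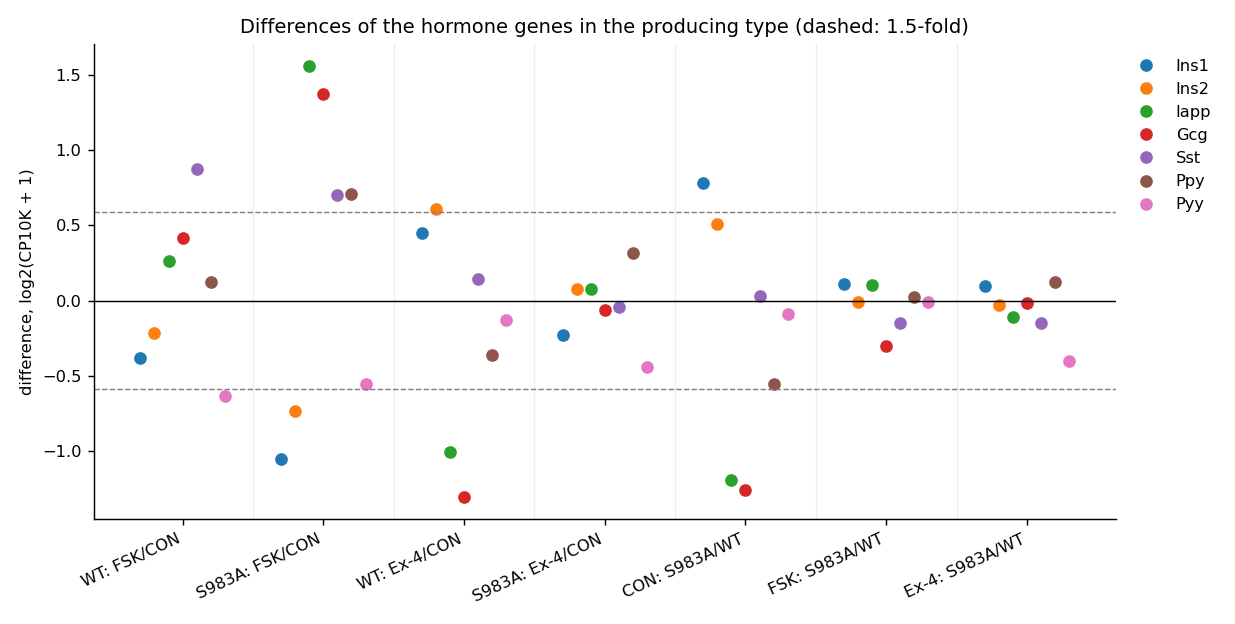
Difference of each hormone gene in its producing type (y axis, log2(CP10K + 1)) in the 7 comparisons (x axis), with dashed lines at 1.5-fold. Members spread furthest for FSK in the mutant, from -1.05 for Ins1 to 1.56 for Iapp, and none lies past a line for Ex-4 in the mutant or for genotype under FSK or Ex-4.

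Genes linked to ribosomal RNA, the small RNA gene Rn7sk and mitochondrial genes moved with the same pools. Their share of beta cell counts was 3.45% in WT CON and 2.87% and 2.75% in the WT and mutant FSK pools, but 9.17% in WT Ex-4, 11.9% in mutant CON and 14.8% in mutant Ex-4. The columns were rescaled without these genes, which takes out only their share of the column totals: every member past the threshold stayed past it. Other differences between the pools that go with this share were not tested. In untreated mutant against WT, Ins2 then passed it as well, at 0.63, beside Ins1 at 0.90, Iapp at -1.09 and Gcg at -1.11. For FSK in the mutant, Pyy then passed it too, at -0.63.

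Hormone RNA was also counted in columns other than that of the cell type taken as producing. Beta cells held 91.4% (90.8 to 92.0) of all Ins1 counts, 92.7% (92.3 to 93.0) of Ins2 counts and 91.9% (91.4 to 92.3) of Iapp counts. Alpha cells held 90.8% of Gcg counts (90.4 to 91.1) and delta cells 86.2% of Sst counts (84.2 to 88.0). By contrast, PP cells held 41.9% of Ppy counts (38.96 to 45.0) and 17.1% of Pyy counts (14.9 to 19.4). Most of the other Pyy counts were in delta cells, 49.9% of the total.

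Relative to the beta cell level of the same condition, Ins2 had a median of 11.2% in alpha cells (range 10.2 to 14.5), 14.5% in delta cells (5.31 to 17.5) and 13.4% in endothelial cells (5.49 to 23.4). Ins1 was similar, with medians of 13.7% in alpha cells, 15.4% in delta cells and 7.86% in endothelial cells. In macrophages, which do not make insulin, the medians were 18.5% for Ins2 (range 11.8 to 36.7) and 13.9% for Ins1. These macrophage levels rested on only 2 to 26 counts per condition for Ins2 and 0 to 6 for Ins1. The alpha and delta cell levels of the insulin genes overlapped in range with those of endothelial cells and macrophages. Whether they are expression in alpha and delta cells was not tested. The column annotated as neurons was higher, with medians of 34.2% for Ins2 and 63.6% for Ins1, on 0 to 47 counts per condition for either gene.

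Iapp was at a median of 9.39% of its beta cell level in alpha cells and 12.6% in endothelial cells, but at 29.7% (range 27.0 to 38.7) in delta cells. In delta cells, Iapp was at 3.45 CP10K (2.87 to 4.11) in WT without agonist, 3.81 (3.25 to 4.44) after FSK and 1.46 (1.12 to 1.87) after Ex-4. In mutant delta cells it was at 1.54 (1.23 to 1.89), 4.53 (4.02 to 5.09) and 1.86 (1.52 to 2.26) in CON, FSK and Ex-4. The same 3 pools were high and the same 3 low as in beta cells, with Iapp 2.95-fold higher (2.31 to 3.79) after FSK in mutant delta cells.

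The proportion of Iapp to Ins2 was compared between columns of a condition. In beta cells, Iapp made up 52.7% (51.5 to 53.9) of Iapp and Ins2 counts in untreated WT, 61.6% (60.4 to 62.7) after FSK and 24.3% (23.3 to 25.4) after Ex-4. The 5 non-endocrine types summed gave 53.0% (40.3 to 65.4), 58.5% (42.1 to 73.7) and 24.1% (15.4 to 34.7), overlapping beta cells in each. Delta cells gave 65.4% (58.2 to 72.2), 89.1% (83.6 to 93.2) and 38.9% (31.3 to 46.9), above beta cells in each. In WT Ex-4, the neuron-annotated column held 47 of the 63 Ins2 and 19 of the 20 Iapp counts of the non-endocrine types. The name of that column is weakly supported.

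In the mutant, the Iapp share was 22.9% (21.5 to 24.2) in CON, 63.5% (62.2 to 64.8) in FSK and 23.1% (21.8 to 24.4) in Ex-4 in beta cells. It was 20.1% (13.7 to 27.9), 56.0% (44.1 to 67.5) and 22.4% (16.2 to 29.6) in the non-endocrine types. Delta cells gave 40.3% (33.7 to 47.1), 85.6% (81.4 to 89.2) and 40.1% (34.0 to 46.3), with intervals above those of beta cells in all 3. Alpha cells overlapped beta cells in 4 of the 6 conditions and lay below them in both FSK pools, at 46.7% (33.7 to 60.0) in WT and 47.8% (39.1 to 56.6) in the mutant. The source of these counts was not tested.

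**Figure D3:**
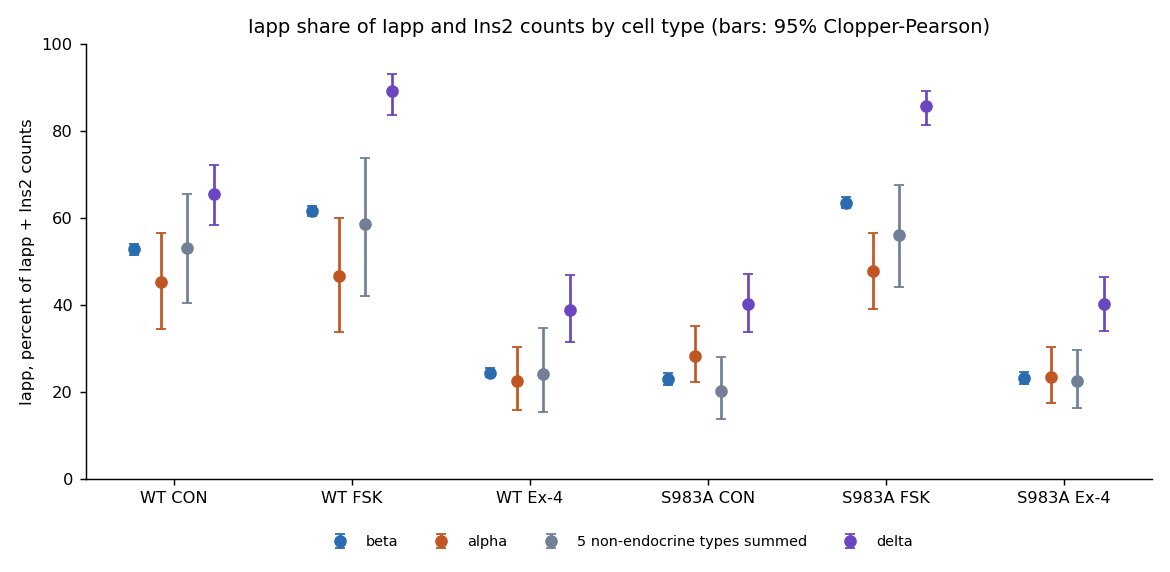
Iapp as a percent of Iapp and Ins2 counts (y axis) in the 6 pools (x axis), for beta, alpha and delta cells and the 5 non-endocrine types summed, with 95% Clopper-Pearson intervals. The non-endocrine types overlap beta cells in every pool, in WT Ex-4 mostly on counts of the column annotated as neurons. Delta cells lie above beta cells in every pool, reaching 89.1% in WT FSK.

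Within the insulin pair, Ins1 made up 30.4% (29.1 to 31.8) of Ins1 and Ins2 counts in untreated WT beta cells, 27.0% (25.6 to 28.5) after FSK and 28.7% (27.6 to 29.7) after Ex-4. The mutant shares were 35.9% (34.5 to 37.3) in CON, 29.1% (27.4 to 30.8) in FSK and 30.7% (29.3 to 32.1) in Ex-4. Untreated mutant beta cells had the highest share, with an interval apart from the other 5.

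In beta and delta cells Gcg was higher in the mutant at each treatment, whereas in alpha cells the mutant was at or below WT. In beta cells, Gcg was at 0.375 CP10K (0.309 to 0.451) in untreated WT, 0.262 (0.208 to 0.325) after FSK and 0.362 (0.297 to 0.437) after Ex-4. In mutant beta cells it was at 1.25 (1.10 to 1.42), 1.53 (1.38 to 1.70) and 1.39 (1.23 to 1.57), so that the genotypes did not overlap. The mutant level in beta cells was 3.34-fold higher (2.66 to 4.21) in CON, 5.85-fold (4.59 to 7.55) in FSK and 3.83-fold (3.05 to 4.84) in Ex-4. The 5 non-endocrine types summed were at 1.70 CP10K (1.18 to 2.37), 0.525 (0.240 to 0.997) and 0.619 (0.297 to 1.14) in WT and at 2.11 (1.64 to 2.68), 4.33 (3.58 to 5.19) and 3.78 (3.11 to 4.55) in the mutant. There the untreated pools overlapped, and the mutant was 8.25-fold higher (4.20 to 18.5) after FSK and 6.10-fold higher (3.19 to 13.1) after Ex-4. Delta cells had Gcg at 1.16 CP10K (0.835 to 1.57), 1.29 (0.969 to 1.67) and 0.579 (0.375 to 0.855) in WT and at 1.96 (1.61 to 2.36), 2.33 (1.97 to 2.74) and 1.76 (1.42 to 2.14) in the mutant, apart at each treatment.

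The PP cell columns did not share this order throughout. Gcg there was at 2.25 CP10K (1.23 to 3.78), 0.633 (0.130 to 1.85) and 0.777 (0.160 to 2.27) in WT CON, FSK and Ex-4, on 14, 3 and 3 counts. Mutant PP cells had 1.64 (1.02 to 2.51), 9.86 (7.94 to 12.1) and 2.45 (1.57 to 3.65), on 21, 91 and 24 counts. The untreated mutant was at 0.731-fold of WT (0.354 to 1.55), and the FSK pools were 15.6-fold apart (5.16 to 76.9). Untreated endothelial cells also had less Gcg in the mutant, at 1.57 CP10K (1.02 to 2.32) against 2.53 (1.72 to 3.59), with overlapping intervals.

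The difference between genotypes in beta cells was shared by the other hormones that beta cells do not chiefly make. Sst in beta cells was 4.35-fold (1.96 to 10.6), 4.03-fold (1.22 to 17.1) and 2.88-fold (1.63 to 5.24) above WT in CON, FSK and Ex-4, on 4 to 37 counts. Ppy was 2.84-fold (1.83 to 4.49), 2.34-fold (1.43 to 3.91) and 2.85-fold (1.78 to 4.64) above WT, and Pyy was 3.38-fold (1.92 to 6.16), 3.11-fold (1.69 to 5.98) and 4.18-fold (2.43 to 7.49) above WT. On the log2(CP10K + 1) scale these 9 differences lay between 0.05 and 0.25, under the threshold, because the levels were at most 0.312 CP10K. The share of counts from delta cells was 8.93% to 10.7% in WT and 15.1% to 15.5% in the mutant, and that from PP cells 0.9504% to 1.53% and 2.26% to 3.41%.

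The share of counts from alpha cells, like Gcg in beta cells, was higher in the mutant at each treatment. It was 10.3%, 6.72% and 11.1% in the WT pools and 21.6%, 19.2% and 21.7% in the mutant pools, in the order CON, FSK and Ex-4. Within a genotype, the treatments did not rank alike for this share and for Gcg in beta cells. In the mutant, the share was lowest after FSK, where Gcg in beta cells was highest. Gcg summed over all cell types was also highest there, at 19.6 CP10K beside 8.79 in mutant CON and 8.69 in mutant Ex-4. In WT that sum was 9.37, 8.08 and 4.15 CP10K in CON, FSK and Ex-4, an order that Gcg in beta cells did not share. Of 7 alpha cell markers other than Gcg, 5 were higher in mutant than in WT beta cells in CON, 4 in FSK and 6 in Ex-4. Their summed level was 7.07, 8.91 and 4.41 CP10K in WT beta cells and 3.64, 6.19 and 3.62 in mutant beta cells, most of it from Slc7a2 and Ttr. Irx1 was at 0 in WT CON beta cells. The part of the alpha cell share in the Gcg levels of beta cells was not tested.

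**Figure D4:**
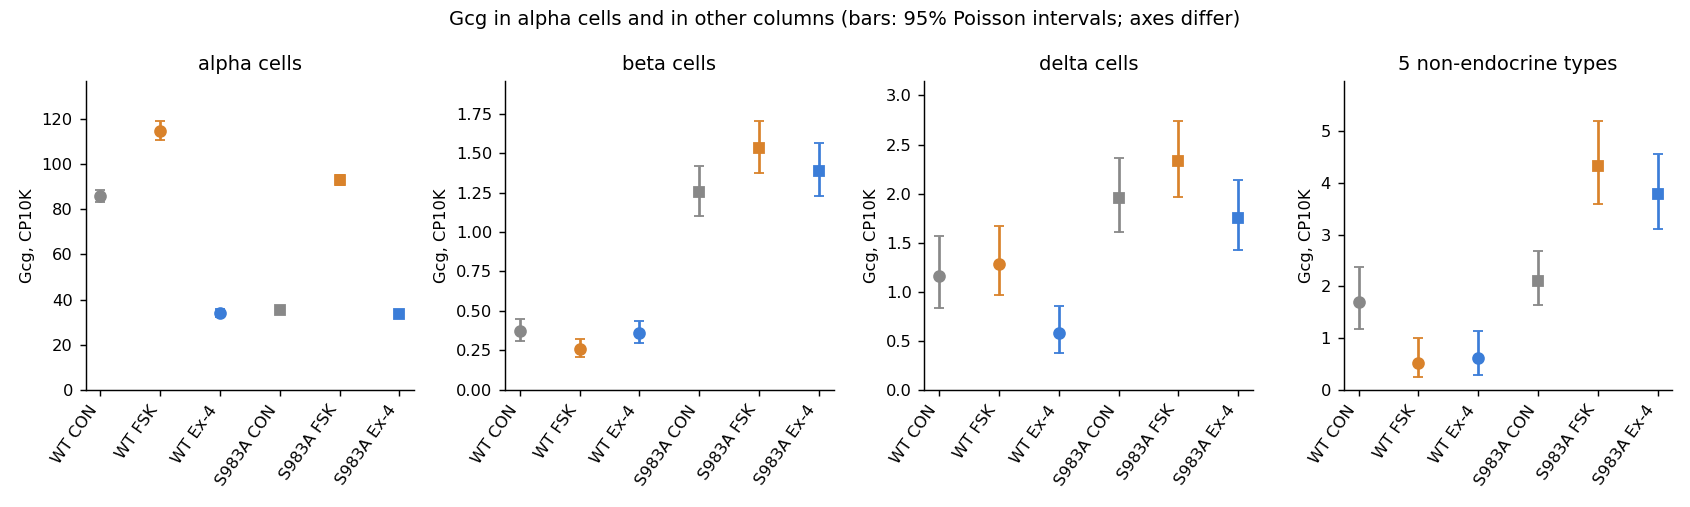
Gcg (y axis, CP10K, a separate scale for each panel) in alpha, beta and delta cells and in the 5 non-endocrine types summed, over the 6 pools (x axis), with 95% Poisson intervals. In alpha cells the untreated and Ex-4 mutant pools are low, whereas in beta cells all 3 mutant pools, at 1.25 to 1.53, lie above the 3 WT pools, at 0.262 to 0.375.

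Sst outside delta cells was low, with medians of 1.55% of the delta cell level in beta cells and 2.32% in alpha cells, the latter on 0 to 15 counts per condition. Ppy had medians of 1.42%, 3.55% and 8.93% of the PP cell level in beta, alpha and delta cells, and rested on 3 counts over all endothelial columns. Pyy was at 2.91% in beta cells and 11.9% in alpha cells, and at 43.3% (range 35.3 to 69.8) in delta cells. In endothelial cells the pooled Pyy level was 5.47% of that in PP cells (3.07 to 9.11), against 45.9% in delta cells (38.9 to 54.2). Ppy made up 69.7% (66.0 to 73.2) of Ppy and Pyy counts in PP cells and 29.3% (26.1 to 32.5) in delta cells, intervals that do not overlap.

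**Figure D5:**
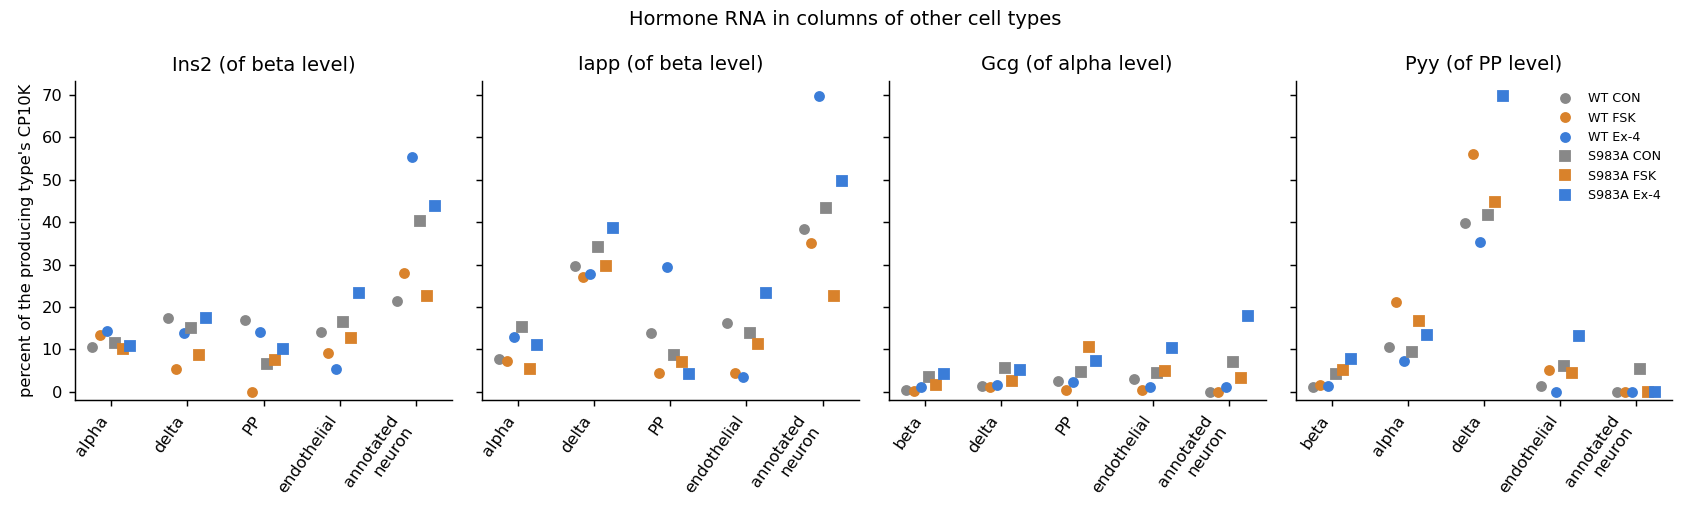
Level of Ins2, Iapp, Gcg and Pyy in other cell types as a percent of the producing type's CP10K in the same condition (y axis), by cell type (x axis), with circles for WT and squares for Med14 S983A. Iapp and Pyy in delta cells lie above the other endocrine columns in most pools, and the column annotated as neurons is high for Ins2 and Iapp on few counts.

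Other peptide and granule genes were examined as a list of 16, of which 9 were in the table and 7 passed the filter in beta cells. Chgb and Scg5, a granin and a granule chaperone, passed the threshold upward after FSK in beta cells of both genotypes. Chgb was at 1.06 CP10K in WT CON and 3.79 in WT FSK, and at 2.37 in mutant CON and 6.09 in mutant FSK. Scg5 was at 4.11 and 6.89 in WT and at 2.71 and 7.15 in the mutant. Scg2, another granin, passed in WT (1.48 and 2.81), and under FSK it was lower in the mutant (1.48). The list had 3 higher and 0 lower after FSK in WT beta cells, with a median difference of -0.01, and 2 higher and 1 lower in the mutant, with a median of -0.07. Over all kept genes, the medians were -0.05 and -0.02, and 2.24% and 7.83% passed the threshold. In untreated mutant against WT beta cells 2 of the 7 were higher (Chgb and Chga) and 0 lower, beside 5.34% of all genes.

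Chga, which encodes chromogranin A, had the direction of the insulin genes in the comparisons where it passed the threshold in beta cells. It was at 10.1 CP10K in untreated WT and 19.0 in untreated mutant beta cells, and in the mutant it was at 9.27 after FSK. In alpha cells Chga was at 3.32 in WT CON, 7.33 in WT Ex-4, 9.12 in mutant CON and 3.07 in mutant FSK. In delta cells it was at 2.62 in untreated WT and 5.97 in untreated mutant, and lower after FSK in both genotypes, at 1.03 and 1.96. In delta cells after FSK in WT, 2 of 6 list members were higher and 1 lower, beside 4.79% of all genes: Chgb was at 1.46 and 3.72 and Scg2 at 0.579 and 1.68. After Ex-4 in WT delta cells 2 were higher and 0 lower, beside 5.06% of all genes, with Chga at 4.96 and Chgb at 2.89. In the untreated mutant 3 were higher and 0 lower, beside 7.05% of all genes, with Chgb at 2.84, Scg2 at 1.57 and a median difference of 0.40 beside 0.02 over all genes. Chgb in alpha cells was at 0.334 in WT CON and 1.08 in WT FSK. After Ex-4 the list had 0 higher and 0 lower of 7 in beta cells of either genotype, beside 3.12% (WT) and 0.0495% (mutant) of all genes.

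Transcription factors known to act on hormone genes were a list of 14, of which 13 were in the table and 10 passed the filter in beta cells. In beta cells, none passed the threshold after FSK or Ex-4 in WT, between genotypes, or after Ex-4 in the mutant. Of all genes, 0.0495% to 5.34% passed in these comparisons, so that 0 of 10 is near the background. After FSK in the mutant, 1 was higher and 1 lower of 10, beside 7.83% of all genes. Creb1, which encodes the factor CREB, was at 0.706 CP10K in mutant CON and 1.92 in mutant FSK, and Nkx6-1, a beta cell identity factor, was at 2.41 and 1.05. In alpha cells, Creb1 was the 1 of 12 past the threshold after FSK in each genotype, beside 2.51% and 4.02% of all genes. It was at 1.34 and 2.56 in WT and at 0.679 and 2.30 in the mutant. In delta cells, Nkx2-2, an islet lineage factor, was lower after FSK in both genotypes, at 1.27 and 0.281 in WT and at 2.08 and 0.681 in the mutant. Hhex, which maintains delta cell identity, was at 0.938 in WT CON and 1.92 in WT FSK, and Creb1 was at 0.565 in mutant CON and 1.41 in mutant FSK. These make 1 higher and 1 lower of 11 in each genotype, beside 4.79% and 7.91% of all genes. Pax6, an endocrine factor, was at 3.81 in WT CON delta cells, 6.76 in WT Ex-4 and 6.52 in mutant CON, the 1 of 11 past the threshold in each, beside 5.06% and 7.05% of all genes.

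For each member, the 3 genes most like it were named by Pearson's r of deposited values over the 24 columns of beta, alpha, delta and PP cells, among 9249 genes with at least 200 counts there. These r values are descriptions over columns that share pools and cell types. For Ins1 they were Gm21974 (0.95), Mafa (0.95), an insulin gene activator, and Gm21973 (0.94). For Ins2 they were Gm21973 (0.97), Glp1r (0.96), the receptor that Ex-4 binds, and Muc4 (0.95). Gm21973 overlaps Prlr, the prolactin receptor gene, on the same strand, and Gm21974 overlaps Vkorc1, Zfp646 and Prss53, so that their reads may not be separable. For Iapp they were Cntnap2 (0.96), Tmem65 (0.95) and Gng12 (0.95), and Cntnap2 was also at 13.1 CP10K in delta cells beside 36.5 in beta cells. For Gcg they were Wnk3 (0.96), Rragb (0.95) and Ifih1 (0.95), of which Ifih1 lies 111716 bases from Gcg on chromosome 2. For Sst they were Hhex (0.98), Mir100hg (0.98) and Ptprz1 (0.98). For Ppy they were Cntnap5b (0.94), Fstl4 (0.93) and Tenm1 (0.93), and for Pyy they were Igdcc4 (0.92), Cntnap5b (0.89) and Rapgef3 (0.89). Among the members themselves, r was 0.96 for Ins1 with Ins2, 0.87 for Ppy with Pyy and 0.65 and 0.70 for Iapp with Ins1 and Ins2.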

How the data were processed

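Nuclei of cultured mouse islets were profiled with combinatorial barcoding, in which 8 sublibraries each hold nuclei of all 6 conditions and are not replicates. Per the study's methods, the authors aligned reads to mm39 with split-pipe 1.4.0, filtered nuclei by counts, genes and mitochondrial share, normalized and integrated them in Seurat 5.3.0 and assigned cell types. The annotation release and whether counts were raw or corrected before pooling are not given in the sources used here, and such a correction would change the levels. The authors deposited natural log values, which were found to equal ln(1 + 10000 × count / column total).

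Column totals were recovered as the number that makes every value a whole count, which held for 100% of values at a tolerance of 0.001 counts (largest deviation 6.39e-05). Totals ran from 1522 to 3094377. All 54 columns were used. Differences are of deposited values divided by the natural log of 2, on the log2(CP10K + 1) scale. In each cell type, genes whose average deposited value was below the 40th percentile (genes without counts set aside) were dropped, which left 10093 genes in beta, 9487 in alpha, 9256 in delta and 7670 in PP cells. Intervals (95%) cover counting error only, and a count of 0 allows up to 3 counts. With 1 pool per condition, no test was run. The script was checked on simulated data.

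Named genes were the 7 members, the 3 genes most like each, and members of the lists that passed 1.5-fold (those in PP cells rested on few counts and are not named). Values of some single marker genes are not reported here. The members and lists were chosen with earlier results of these data known. Alternatives were the ratio with no pseudocount, columns rescaled without 14 ribosomal RNA linked, Rn7sk and mitochondrial genes (6 of them mitochondrial) or without the 7 hormone genes, differences centred on their median, a 2-fold threshold, no filter or the 75th percentile, pooled counts or leaving out WT CON for levels in other cell types, and Spearman correlation. Positions are from GRCm39 (GENCODE M39), and promoter sequences from RefSeq (GRCm38.p6), with no coordinates moved between builds. Scripts ran in Python 3.11.15 with SciPy 1.17.1, NumPy 2.4.6, Matplotlib 3.10.9 and pandas 2.3.3.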

Additional observations from a re-analysis of the deposited data

Results flagged for a closer look

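Ins1 in beta cells moved in opposite directions after Ex-4 in the genotypes: it was at 1.45-fold of CON in WT and at 0.834-fold of CON in the mutant. The counting intervals of both ratios exclude equality (1.35 to 1.55 and 0.776 to 0.897). The difference between the genotypes was not tested, since each condition is 1 pool, and both ratios are within 1.5-fold. The untreated pools differed more than the Ex-4 pools, with Ins1 at 4.54 (WT) and 8.52 (mutant) CP10K, against 6.58 and 7.11 after Ex-4.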

How the results depend on the processing

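No member past 1.5-fold changed direction under any alternative run. Among all 196 values compared for single members, including those under 1.5-fold, 5 differed in sign. With a 2-fold threshold, the count fell to 0 members higher and 0 lower for FSK in WT, 2 higher and 1 lower for FSK in the mutant, 0 higher for Ex-4 in WT, and 0 higher for untreated mutant against WT. With differences centred on their median, Pyy (FSK in WT) and Ins2 (Ex-4 in WT) fell under the threshold. This left 0 members lower for FSK in WT and 0 higher for Ex-4 in WT. Rescaling without ribosomal RNA linked, Rn7sk and mitochondrial genes raised the members higher in untreated mutant to 2. The other member counts, 61 of 70, stayed within 1.5 times, and the shifts of the median of all genes under rescaling were below 0.04 on the log2 scale. With the filter at the 75th percentile, the genes past 1.5-fold in PP cells were 694 for FSK and 781 for Ex-4 in WT, 196 for Ex-4 in the mutant, 472 for genotype under FSK and 616 under Ex-4. The median Gcg level in beta cells, 1.36% of that in alpha cells, was 1.65% without WT CON. The genes most like a member depended on the measure: with Spearman correlation, Ins1, Sst and Ppy shared 0 of 3 genes, and Ins2, Gcg and Pyy shared 1. PP cell columns limit what can be seen, since Pyy rested on 15 to 65 counts. No paired analysis was possible because each condition has 1 pooled column and no replicate numbers.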
